A study of Homo sapiens with 2 samples.

Results

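The genes that receive and relay interferon signals were examined one probe at a time in Ca9-22, an established oral squamous cell carcinoma (OSCC) line. They were the receptor genes IFNAR1, IFNAR2, IFNGR1, IFNGR2, IFNLR1 and IL10RB, the kinase genes JAK1, JAK2 and TYK2, and the inhibitor gene SOCS1. Members were the probes outside the array's controls whose gene name was one of these symbols, which gave 14 probes of 10 genes, out of 58201 probes and 43317 gene names. A total of 8 genes had 1 probe, and IFNAR2 and IFNLR1 had 3 each.

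The array experiment compared Ca9-22 cells carrying a lentiviral vector with the long noncoding RNA DLEU1 and Ca9-22 cells carrying a control vector. Both had been selected with blasticidin at 6 mg/ml for 2 weeks, so both carried an integrated lentivirus and the resistance gene. There was 1 sample and 1 array per vector (the control array and the DLEU1 array below), labelled with Cy3, and neither was stated to be a clone. No test or replicate SD between cultures could therefore be computed, and the number of arrays limited the precision of every value. The study followed IFNAR1 and IFNGR2 further by qRT-PCR. It reported both as lower after DLEU1 knockdown and higher with a DLEU1 vector in multiple OSCC lines. The question here was how the transcripts of every interferon receptor chain and its kinases differed between the arrays.

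Each type of interferon is bound by its own pair of receptor chains. IFNAR1 and IFNAR2 form the type I receptor for the alpha and beta interferons, IFNGR1 and IFNGR2 form the type II receptor for interferon gamma, and IFNLR1 with IL10RB forms the type III receptor for the lambda interferons, which act mainly on epithelia. The chains have no enzyme activity and are served by Janus kinases, TYK2 and JAK1 at the type I and III receptors and JAK1 and JAK2 at the type II receptor. The kinases phosphorylate STAT proteins, which enter the nucleus and switch on interferon-stimulated genes through ISRE and GAS elements. SOCS1 is one of the genes switched on in this way, and its protein blocks the Janus kinases.

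The probes were 60-base oligos in the sense of the transcript, and those whose values set the results below are shown here in lower case from the 5′ end. The 3 IFNAR2 probes are shown because they are listed for different transcripts. A_23_P211080 is listed for NM_207585 and related forms and both others for NM_000874 and NM_207584. Whether a probe also reads forms it is not listed for was not looked up. The 3 IFNLR1 probes are shown because they are listed for the same transcripts and yet 1 of them was not detected. The first 30 bases are given for 5 probes and the whole probe for the other 5.
IFNAR2 A_33_P3361457, whole: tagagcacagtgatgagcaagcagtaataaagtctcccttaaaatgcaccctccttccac
IFNAR2 A_33_P3337540, first 30 bases: ccctgtgccccagtgattaagttttattat
IFNAR2 A_23_P211080, first 30 bases: tatggggaccatagtatcattcagtgcatt
IFNLR1 A_23_P74112, first 30 bases: ggtgaaagcaacatgtatccctttagacta
IFNLR1 A_24_P19677, whole: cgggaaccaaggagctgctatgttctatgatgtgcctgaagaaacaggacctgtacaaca
IFNLR1 A_33_P3268612, whole: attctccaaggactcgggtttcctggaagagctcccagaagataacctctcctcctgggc
IL10RB A_24_P322741, whole: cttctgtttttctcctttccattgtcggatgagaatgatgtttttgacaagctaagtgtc
JAK1 A_33_P3784283, first 30 bases: ctggcacattaatcatagataaagaaagat
TYK2 A_23_P141917, whole: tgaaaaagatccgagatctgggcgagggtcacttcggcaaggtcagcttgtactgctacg
SOCS1 A_23_P420196, first 30 bases: acctgaactcgcacctcctacctcttcatg

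Values are given first as the processed signal of the scanner software, in arbitrary intensity units, and then as a log2 level relative to the 75th percentile of the array. A difference is the log2 level on the DLEU1 array less that on the control array, so that a negative value means lower with DLEU1. Every member had a single spot on each array. The ± beside a difference is the error that the software's own error model assigned to that pair of spots. It is a modelled value and not a spread measured between spots, and it does not cover the cultures. Among the detected members it was close to 0.20 for the brighter probes and reached 0.36 for the dimmest. Probe positions are hg19, and exon and UTR annotation of that build was not used here. Replicated spots of 282 other detected probes gave a smaller spread, with an SD of 0.08 for a difference. Detected means flagged by the software as well above background, and the limit for a call was 2-fold.

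On the control array 27731 probes (47.6%) were detected and on the DLEU1 array 27969 (48.1%). DLEU1, the gene the vector carries, had a level of 3.17 on the control array and 5.91 on the DLEU1 array at its probe A_23_P151337, in the direction of the labels, and its other 2 probes were higher by 0.85 and 0.54. All 10 epithelial and squamous markers looked up (KRT5, KRT14, KRT6A, KRT17, CDH1, EPCAM, TP63, SFN, DSG3 and ITGB4) were detected on both arrays. A strip of spots on the DLEU1 array was low, where 27.4% of spots with signal on the control array were at least 2-fold lower, against 12.6% elsewhere. It held 0 of the 14 member probes. Among the 100 detected spots nearest to each member the median difference ran from -0.19 to 0.10.

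A total of 13 of the 14 member probes were detected on both arrays, and 1 IFNLR1 probe on neither. None was at least 2-fold higher (0 of 13) or at least 2-fold lower (0 of 13) with the DLEU1 vector. Over all 26279 probes detected on both arrays 8.98% passed 2-fold upward and 9.78% passed it downward. Of the 13 detected member probes 4 were higher and 8 were lower by 0.01 or more, and IFNGR1 had the same level on both arrays. Their median difference was -0.16, beside -0.07 for all detected probes. Between the quartiles of all detected probes, -0.52 and 0.40, lay 10 of the 13. A difference of at least 1.5-fold was seen for 3 of the 13 (23.1%) and for 40.4% of all detected probes. In RNA from whole cultures, fewer cells of a kind cannot be told apart from less RNA per cell.

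**Figure D1:**
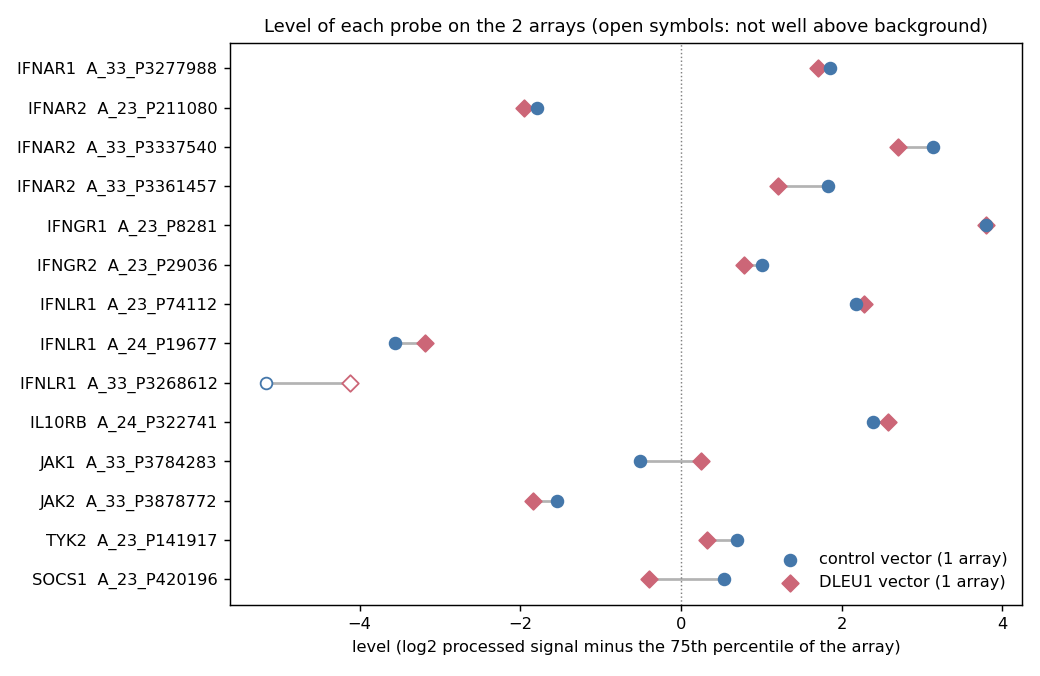
Log2 level of each of the 14 member probes relative to the 75th percentile of its array, for the control vector (circles) and the DLEU1 vector (diamonds), 1 array each. Open symbols mark the IFNLR1 probe that was not well above background. The pair of symbols lies farthest apart, among detected probes, for SOCS1 (0.54 and -0.40) and JAK1 (-0.51 and 0.25), and coincides for IFNGR1 (3.80 on both arrays).

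All 4 probes of the type I receptor chains were lower with the DLEU1 vector, although 2 of them, that of IFNAR1 and A_23_P211080 of IFNAR2, turned to 0.03 each after subtraction of the median of their 100 nearest spots. IFNAR1, the chain held by TYK2, was read by A_33_P3277988 on chromosome 21 (hg19, chr21:34732064-34732123, plus strand). Its signal was 876 on the control array and 773 on the DLEU1 array, a level of 1.85 and 1.71. The difference of -0.14 ± 0.20 was smaller than its error. The 100 nearest detected spots had a median difference of -0.17, so the IFNAR1 probe did not stand apart from its surroundings on the array.

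IFNAR2, the chain that binds type I interferon most tightly, was read at 3 places. A_33_P3361457 (hg19, chr21:34625061-34625120) gave a signal of 862 on the control array and 547 on the DLEU1 array, a difference of -0.62 ± 0.20. A_33_P3337540 (hg19, chr21:34635002-34635061) gave 2136 and 1537, a difference of -0.44 ± 0.20. These probes, both listed for NM_000874 and NM_207584, were each lower by more than 2 of their errors.

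The IFNAR2 probe listed for NM_207585, A_23_P211080 (hg19, chr21:34635969-34636028), gave a signal of 70.1 and 61.1, a difference of -0.16 ± 0.22. It was thus lower by less than its error, and its nearest spots had a median of -0.19. The 3 IFNAR2 probes had a mean difference of -0.41 with an SD of 0.23 between probes. Pooled over 4674 genes of these arrays, the SD between probes of the same gene was 0.47, and the IFNAR2 SD was below it. Genes whose probes disagree weigh heavily in a pooled SD, so it is not the spread of a typical gene.

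The type II receptor chains differed by less than 2 errors each. IFNGR1, the ligand-binding chain, was read by A_23_P8281 (chromosome 6, hg19, chr6:137518878-137518937, minus strand). Its signal was 3383 on the control array and 3296 on the DLEU1 array, and after scaling both levels were 3.80, a difference of 0.00 ± 0.20. IFNGR2, the chain that brings JAK2 to the complex, was read by A_23_P29036 (hg19, chr21:34809222-34809281). Its signal was 488 and 407, a level of 1.01 and 0.79, and the difference was -0.22 ± 0.20. The gap between the IFNGR1 and IFNGR2 differences, 0.22 ± 0.29, was within its error.

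All 3 detected probes of the type III receptor chains were higher with the DLEU1 vector, none by 2 errors, and all 3 turned lower when the spike-in probes or B2M were set equal. IFNLR1, the chain specific to lambda interferons, was read by A_23_P74112 (chromosome 1, hg19, chr1:24480767-24480826, minus strand), with a signal of 1102 and 1145 and a difference of 0.09 ± 0.20. A_24_P19677 (hg19, chr1:24495991-24496050) was dim, at 20.5 and 25.9, and differed by 0.38 ± 0.36. A_33_P3268612 (hg19, chr1:24483837-24483896) read 6.76 and 13.6 and was not well above background on either array, so no fold was taken from it.

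IL10RB is the chain that the lambda interferon receptor shares with the receptors of interleukin-10 and interleukin-22. Its probe A_24_P322741 (hg19, chr21:34668516-34668575) gave a signal of 1268 on the control array and 1407 on the DLEU1 array, a level of 2.39 and 2.58. The difference of 0.19 ± 0.20 did not exceed its error.

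The genes IFNAR2, IL10RB, IFNAR1 and IFNGR2 lie side by side on the long arm of chromosome 21. Their 6 probes spanned 184221 bases, and 5 of them were lower with the DLEU1 vector, IL10RB being the exception. Of 15 symbols looked up for the surrounding genes 14 had a probe, the other being the newer name of ATP5O, and 12 were detected on both arrays. A total of 10 of these 12 were lower and 2 higher, with a median of -0.49, beside 54.4% lower over all detected probes. By the probe brightest on the control array 1 was at least 2-fold lower, beside 9.78% of all detected probes. GART, at -0.99 by that probe, was at -1.29 by its other one. The extremes were DONSON, which acts at DNA replication forks and was 4.01-fold lower, and DNAJC28 (0.69). The DONSON value came from 1 of its 3 probes, the others not being detected on both arrays.

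Among the Janus kinases JAK1 was higher by more than 2 errors, while TYK2 and JAK2 were lower by less than 2 errors each. JAK1, which serves all 3 interferon receptors, was read by A_33_P3784283 (chromosome 1, hg19, chr1:65299773-65299832, minus strand). Its signal was 170.2 on the control array and 279.8 on the DLEU1 array, a level of -0.51 and 0.25. The difference of 0.75 ± 0.21, or 1.69-fold, was the highest of the detected members and lay past 2 errors. It stayed positive under each of 11 other ways of processing, between 0.29 with the spike-in probes set equal and 0.87 with the 75th percentile taken over detected probes.

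JAK2, which serves the type II receptor, was read by A_33_P3878772 (chromosome 9, hg19, chr9:5127355-5127414, plus strand). Its signal was low on both arrays, 83.1 and 65.8, and the difference was -0.30 ± 0.23. TYK2, which serves the type I and III receptors, was read by A_23_P141917. The position given for this probe (chromosome 19, hg19, chr19:10464877-10465213, minus strand) covers 337 bases for 60 bases of sequence. The bases of the probe therefore do not lie in an unbroken stretch of the genome. Its signal was 393 on the control array and 297 on the DLEU1 array, a difference of -0.37 ± 0.21.

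JAK1 thus exceeded TYK2 by 1.12 ± 0.29 and JAK2 by 1.06 ± 0.31 in its difference between the vectors, while TYK2 and JAK2 lay within 0.07 ± 0.31 of each other. A constant scaling factor between the arrays cancels in these gaps, but the background correction does not. With normexp the JAK1 and JAK2 gap was 0.63 and the JAK2 difference itself -0.08. Each kinase was read by a single probe, and a fault of 1 probe was not tested.

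SOCS1 had the lowest difference of all members. Its probe A_23_P420196 (chromosome 16, hg19, chr16:11348384-11348443, minus strand) gave a signal of 351 on the control array and 179.3 on the DLEU1 array, a level of 0.54 and -0.40. The difference was -0.93 ± 0.21, so that the signal with the DLEU1 vector was 52.4% of that with the control vector, short of the 2-fold limit. The difference was 4.52 times its error, and the 100 nearest spots had a median of -0.09. SOCS1 was lower under all 11 other ways of processing, between -1.40 with the spike-in probes set equal and -0.71 with normexp background correction. It passed 2-fold with median scaling (-1.05), spike-in scaling (-1.40) and B2M set equal (-1.34). The gap between the JAK1 and SOCS1 differences was 1.69 ± 0.29, and 1.26 with normexp.

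**Figure D2:**
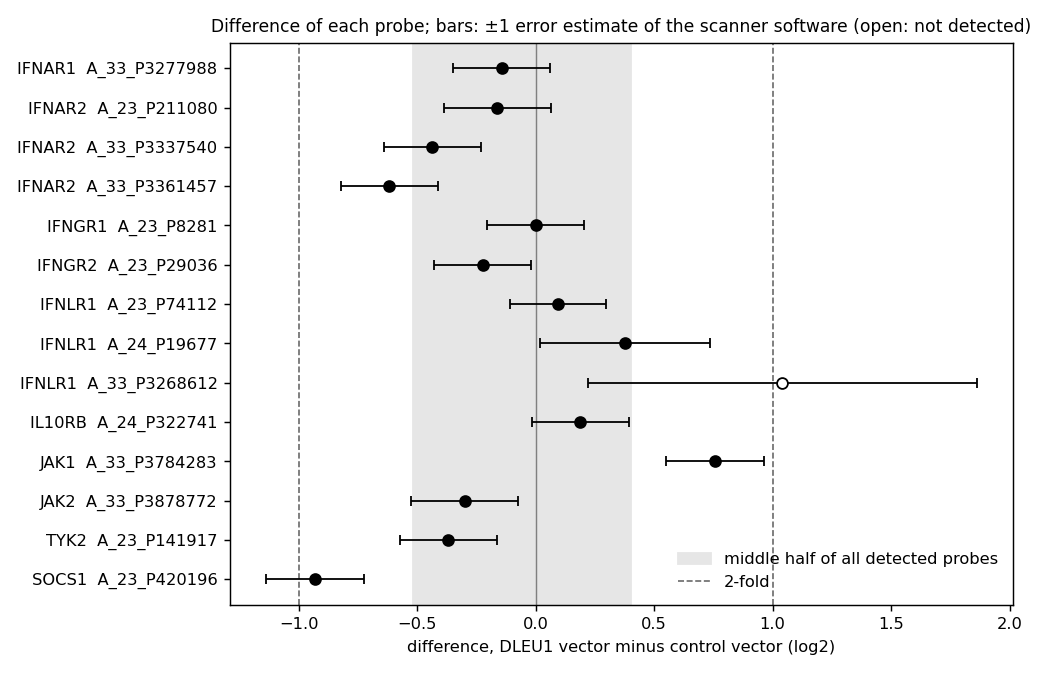
Difference of each member probe, DLEU1 vector minus control vector on the log2 scale, with bars of 1 software error either side. The shaded band runs between the quartiles of all detected probes (-0.52 and 0.40) and the dashed lines mark 2-fold. The IFNAR2 probe A_33_P3361457 (-0.62) and SOCS1 (-0.93) lie below the band and JAK1 (0.75) above it.

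The promoters of the members were searched for the elements through which STAT proteins act, since SOCS1 is itself an interferon target. RefSeq windows of 300 bases (GRCh38.p14, 250 before and 50 after the start) matched 9 of the 10 genes with 16 windows, and IFNAR2 was not matched. The ISRE letters, GAAA followed by any 2 bases and GAAA and read on both strands, occurred in 3.57% of all 35116 windows and in 1 member window, that of SOCS1. The match began at position -113 from the start and is in capitals in the SOCS1 sequence below (chr16:11256205-11256454, minus strand). The GAS letters TTCNNNGAA, which read the same on both strands, occurred in 7.66% of all windows and in 2 member windows, at -238 in IFNLR1 (shown from chr1:24187480-24187539, minus strand) and at 12 in IL10RB (chr21:33266368-33266397, plus strand), also in capitals. The letters of neither motif overlapped those of the other in these windows. A match describes the letters only and no binding was measured.
SOCS1, 250 bases before the start: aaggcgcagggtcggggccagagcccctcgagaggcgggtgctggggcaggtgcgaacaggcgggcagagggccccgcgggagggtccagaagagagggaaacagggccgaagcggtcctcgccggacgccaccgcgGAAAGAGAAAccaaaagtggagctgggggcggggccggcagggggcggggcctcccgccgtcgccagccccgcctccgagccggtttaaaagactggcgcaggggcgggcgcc
IFNLR1, from base -250: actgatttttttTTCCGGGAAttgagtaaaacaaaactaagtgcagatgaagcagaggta
IL10RB, from base 2: tctccgctggTTCCCGGAAgccgccgcgga

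Genes that work beside the members were read from fixed lists. For a gene detected on both arrays, the detected probe brightest on the control array was used. Beside the counts past 2-fold below, the shares of all probes detected on both arrays were 8.98% upward and 9.78% downward. The list of STAT genes and IRF9 had 7 of 8 detected, with a median of 0.79 (the value of IRF9), and with the DLEU1 vector 2 were past 2-fold upward and 0 downward. STAT2, which joins IRF9 in the complex of the type I response, was highest (1.94). STAT3 (1.14) was the other gene past 2-fold, by both of its probes, while the second IRF9 probe differed by -0.20.

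The other JAK and SOCS genes were all detected (8 of 8), with a median of 0.22, 2 of them past 2-fold upward and 0 downward. JAK3, the kinase of the common gamma chain, was highest (1.52) and SOCS7 lowest (-0.88). The other negative regulators of the pathway (12 detected) had a median of -0.36, with 2 past 2-fold upward and 3 downward. Their extremes were PIAS1 (1.51), an inhibitor of STAT proteins, and CBL (-3.14), a ubiquitin ligase. CBL and PTPN11 were read in the strip of low spots, and without the strip the count at least 2-fold lower was 1, with SH2B3 (-1.40) lowest.

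Genes for the turnover of receptor proteins had a median of -0.25 over 9 detected, 0 of them at least 2-fold higher. PRKD2 (-2.35), a kinase that marks IFNAR1 for uptake, was lowest, but its probe lay in the strip, and without it 0 genes were at least 2-fold lower. CSNK1A1 was highest (0.30). The receptors of the same class II family had 3 of 6 detected, IL20RB (1.24), IL22RA1 (0.91) and F3 (-1.80). GAS and ISRE target genes had 12 of 16 detected on both arrays with a median of 0.19, from IFIT1 (-0.62) to GBP2 (2.29), and among these 12 there were 3 past 2-fold upward and 0 downward. A further 2, the chemokine genes CXCL10 and CXCL11, were detected on the control array only. Against the lowest detected level of the DLEU1 array, CXCL10 was at least 2.62-fold lower and CXCL11 at least 2.02-fold lower with DLEU1. The CXCL10 bound is from its brighter probe, at a level of -2.65 on the control array. Its other probe, at -3.07 and also detected on the control array only, gives a smaller bound. CIITA, the activator of MHC class II genes, was detected on the DLEU1 array only and was at least 2.88-fold higher by the same kind of bound, at 1 of its 2 probes.

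**Figure D3:**
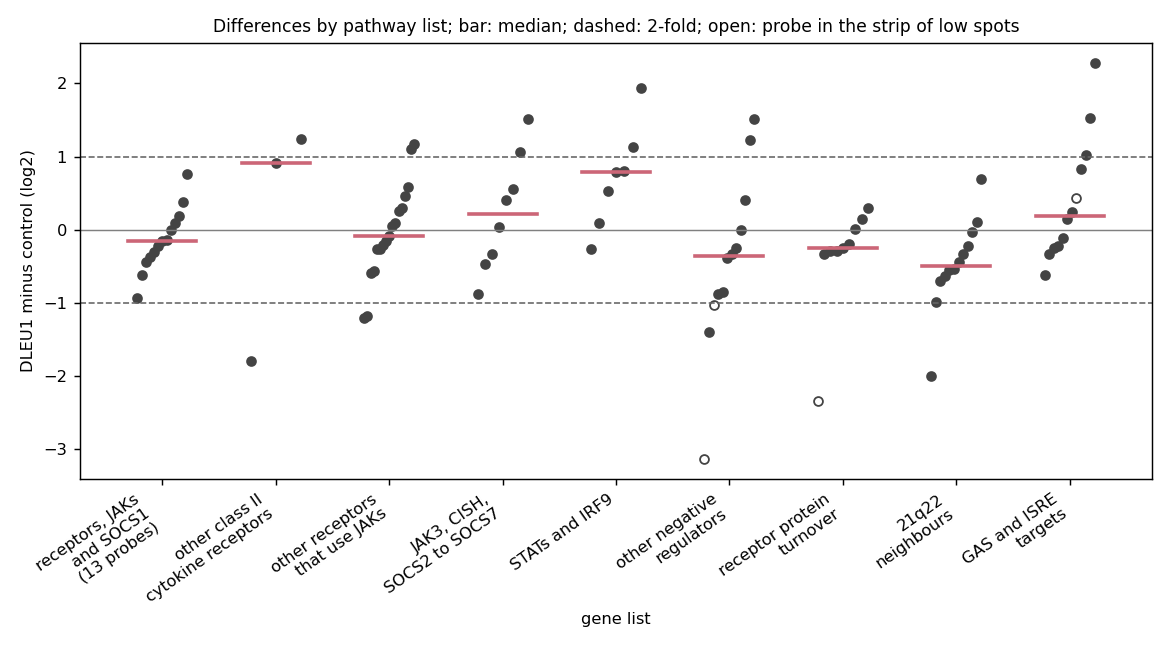
Differences of the 13 detected member probes and of the genes in 8 pathway lists, DLEU1 vector minus control vector on the log2 scale. Points are probes or genes, bars are medians, dashed lines mark 2-fold and open points were read in the strip of low spots. The member probes lie inside the 2-fold lines with a median of -0.16, and the STAT and IRF9 list has a median of 0.79.

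The sign of the small differences depended on how the arrays were scaled. With the spike-in probes set equal the median over all detected probes moved by -0.46, with B2M set equal by -0.41 and with median scaling by -0.11, and with a 75th percentile of the detected probes alone by 0.11. IFNGR1 changed sign in 6 of the 11 other ways of processing, A_23_P74112 of IFNLR1 in 3, A_24_P19677 of IFNLR1 in 2 and IL10RB in 2. IFNAR1 and the IFNAR2 probe A_23_P211080 changed sign in 1, the one that used the nearest spots. The other 7 detected probes, those of JAK1, JAK2, TYK2, SOCS1, IFNGR2 and the other 2 IFNAR2 probes, kept their sign.

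B2M, a subunit of MHC class I and itself inducible by interferon, was the internal control of the study's qRT-PCR. On the control array its level was 8.25, and on the DLEU1 array it was higher by 0.41, at 8.67. Relative to B2M, 12 of the 13 detected member probes were lower, among them IFNAR1 by -0.55 and IFNGR2 by -0.63, and JAK1 was the exception (0.34). Setting B2M equal shifts every probe alike, and the median over all detected probes was then -0.48, beside -0.57 for the members. The count of lower members thus follows in large part from that shift. The study's qRT-PCR reported IFNAR1 and IFNGR2 as higher with DLEU1 in multiple OSCC lines. On these arrays, under the main processing, the differences were -0.14 ± 0.20 for IFNAR1 and -0.22 ± 0.20 for IFNGR2. Neither reached 2 errors, so with 1 array per vector in 1 line no direction was resolved for them. The reason that the arrays did not show the reported increase was not tested.

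**Figure D4:**
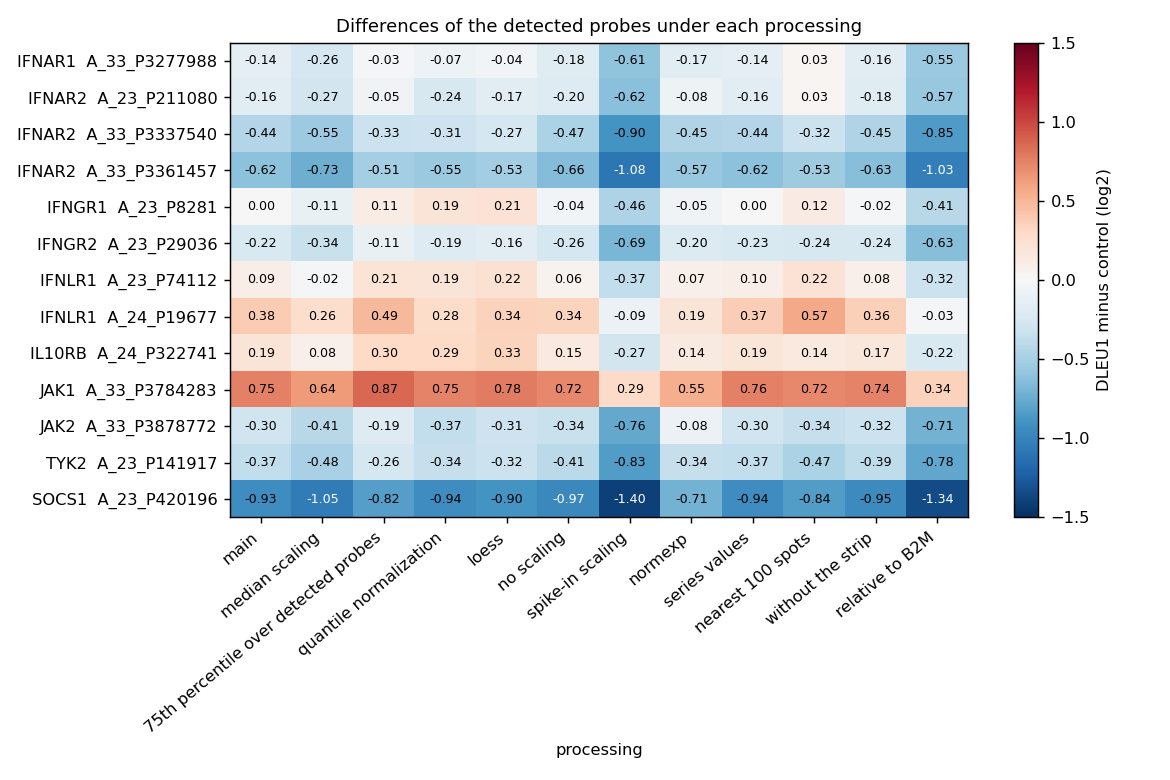
Difference of each detected member probe (rows) under the main processing and 11 alternatives (columns), DLEU1 vector minus control vector on the log2 scale. Blue is lower and red higher with the DLEU1 vector. JAK1 is red in every column (0.29 to 0.87), SOCS1 is blue in every column (-1.40 to -0.71), and the spike-in and B2M columns are the bluest.

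Genes of the cell state and of other cell types also differed between the arrays. Of the 10 squamous and epithelial markers 6 were at least 2-fold higher with the DLEU1 vector and 0 at least 2-fold lower. Of all detected probes 8.98% passed 2-fold upward and 9.78% downward. The markers ranged from EPCAM (-0.78) to KRT17 (3.09). Of 9 markers of other cell types with a probe, 5 were detected on both arrays and 4 on neither. Those detected included PTPRC (0.45), VWF (3.70), COL1A1 (3.99) and DES (-1.01). VWF went from -2.33 to 1.37 and COL1A1 from 0.47 to 4.47, and a second detected VWF probe differed by -0.07, while those detected on neither array included CD3E, PECAM1 and COL3A1. The part of these differences in the member values was not tested.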

How the data were processed

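Total RNA of each culture was labelled with Cy3 and hybridised to SurePrint G3 Human GE v3 arrays. Per the file headers, Agilent Feature Extraction 10.7 made the deposited intensity values, with spatial and multiplicative detrending and an error for each spot. The authors analysed the arrays in GeneSpring. Values were not normalized between arrays.

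Here control spots and 84 and 103 outlier spots were left out, log2 signals of a probe were averaged and the array's 75th percentile was subtracted. Errors of the paired signals were added in quadrature on the log2 scale. Probe positions are those of the files (hg19). Alternatives used limma 3.58.1 (loess span 0.3, normexp offset 50). The scaling and the call at 2-fold were tested on simulated data.

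The genes named were the members, DLEU1, B2M, the markers and the extremes of each list. IL22RA1, STAT3, PTPN11, SH2B3, GART, CXCL10, CXCL11 and CIITA were named after their values were seen. Some listed genes are not reported here. The members, lists and tests were chosen with earlier results of these data known.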

Additional observations from a re-analysis of the deposited data

How the results depend on the processing

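Leaving out the strip of low spots and setting B2M equal were chosen after seeing the data. The member probes at least 2-fold lower were 1 with median scaling, 2 with spike-in scaling and 2 with B2M set equal, by the construction of the shift, against 0 otherwise. The probes at least 2-fold higher were 1 with no filter on detection and 1 with the positive and significant flag, because the dim IFNLR1 probe then counts, against 0. A 1.5-fold threshold gave 1 higher and 2 lower. The member median was -0.27 with median scaling, -0.62 with spike-in scaling, -0.57 with B2M set equal, -0.050 with the percentile of detected probes alone and 0.026 after subtraction of the nearest 100 spots. Its other values ran from -0.20 to -0.084. Of 143 probe values under alternatives, 77 moved by more than the replicated-spot SD, and 15 changed sign. Low signal over background limits the dim IFNLR1, JAK2 and IFNAR2 A_23_P211080 probes. No paired analysis was possible because each group had 1 array.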

Other observations

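Receptors outside the interferon family that also work through Janus kinases had 17 of 24 genes detected on both arrays, with a median difference of -0.09. Of these, 8 were higher and 9 lower with the DLEU1 vector, 2 past 2-fold upward and 2 downward, beside 8.98% and 9.78% of all detected probes. IL11RA (1.17) was highest and IL27RA (-1.21) lowest. The genes below were named after their values were seen. IL6ST, the signal chain shared by the interleukin-6 family, went from a level of 2.45 to 1.27, a difference of -1.18, and its 7 detected probes ran from -1.37 to -0.73. OSMR (-0.60 and -1.40 at its 2 detected probes) and LIFR (-0.56), which pair with it, were also lower. IL6R (0.46 and 0.94 at its 2 probes) was higher. The extremes named above, IL11RA (1.17) and IL27RA (-1.21), also work with IL6ST and went opposite ways. IL21R (1.10) was dim on both arrays, at -2.84 and -1.73. IL2RB and IL12RB1 were detected with the DLEU1 vector only.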
